A study of Mus musculus with 24 samples.

Results

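The transcripts of wild-type mouse embryos were compared between late zygotes and the 2-cell stage, using 6 of the 24 libraries of a series on the oocyte gene Nlrp14. The members are 3 libraries of zygotes at pronuclear stage 5 (PN5), when the pronuclei lie close together before the first cleavage, and 3 libraries of 2-cell embryos, all of wild-type genotype by their labels. Each library was made from the total RNA of 5 pooled embryos with the SMART-Seq HT kit, and the replicates are labelled as biological. The 3 wild-type libraries each of germinal vesicle (GV) oocytes, which are fully grown and still in meiotic arrest, and of metaphase II (MII) eggs, which have matured and await fertilisation, served as a record of what the egg had held. The 6 Nlrp14 knockout libraries of the same 2 embryonic stages served for a comparison of genotypes. The labels name neither the strain and age of the females nor the genotype of the sires. Expression is given in FPKM, fragments counted per kilobase of transcript and scaled to library size.

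A full-grown mouse oocyte does not transcribe its genome. It matures, is fertilised and begins its first cell cycle on messenger RNAs made and stored earlier. Clearance and activation then overlap: stored maternal transcripts are deadenylated and degraded, and the embryo's genome starts transcription, weakly in the late zygote and strongly during the 2-cell stage. Both are known as the maternal-to-zygotic transition. In the mouse the strong wave includes gene families almost restricted to the 2-cell stage, such as Zscan4, and the machinery that makes ribosomes, RNA and proteins.

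The labels were checked against stage markers. Zscan4d, a 2-cell-stage gene, was at 3.19, 1.24 and 1.40 FPKM in the PN5 libraries and at 327, 210 and 273 FPKM in the 2-cell libraries. Gdf9, a growth factor secreted by oocytes, was at 536, 683 and 1146 FPKM at PN5 and at 57.0, 79.0 and 20.7 FPKM at the 2-cell stage. Neither gene overlapped between the stages. The values implied 9.20 to 11.2 M fragments per PN5 library and 7.65 to 9.70 M per 2-cell library, so that 1 fragment in a transcript of 1 kb was worth 0.0895 to 0.131 FPKM. Between 8729 and 9767 genes reached 1 FPKM at PN5, and between 14128 and 14561 did at the 2-cell stage. PN5 library 1 stood apart: 21.8% of its summed FPKM came from mitochondrially encoded genes, against 11.8 and 8.30% in PN5 libraries 2 and 3, and 23.6 to 30.7% in the 2-cell libraries. Its 10 most abundant genes held 27.5% of the sum, against 19.5 and 16.0%.

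Of 13398 genes that reached 1 FPKM in 3 or more of the 6 libraries, 8418 (62.8%) differed between the stages. Among them 6429 (48.0%) were higher and 1989 (14.8%) were lower at the 2-cell stage, by limma on log2(FPKM + 1) with an adjusted p under 0.05. These percentages are the background for every list below. Every 2-cell library was above every PN5 library for 6735 genes (50.3%) and below for 2195 (16.4%). At least 2-fold changes on that scale made up 5762 rises (43.0%) and 1482 falls (11.1%). Without PN5 library 1 there were 6325 rises and 2347 falls. The libraries have no external standard, and the split depends on how they are set on a common scale. Median-of-ratios scaling, which sets the typical gene equal between libraries, gave 5101 rises (39.1%) and 3236 falls (24.8%) of 13033 genes. Setting every library to the same FPKM sum gave 5282 rises (39.8%) and 2326 falls (17.5%) of 13268 genes. Removing the trend of each library with transcript length gave 4506 (33.6%) and 4291 (32.0%). Rises were thus 76.4% of calls as deposited and 61.2, 69.4 and 51.2% under these 3 alternatives. Under both the deposited and the median-of-ratios scale, 5098 genes rose (38.1%) and 1987 fell (14.8%). The median difference over all genes was 0.70 as deposited and 0.22 after median-of-ratios scaling, in log2 units. In bulk libraries, fewer transcripts per cell and fewer cells with a transcript cannot be told apart, and neither can loss of a transcript and shortening of its poly(A) tail where complementary DNA is primed on the tail.

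**Figure D1:**
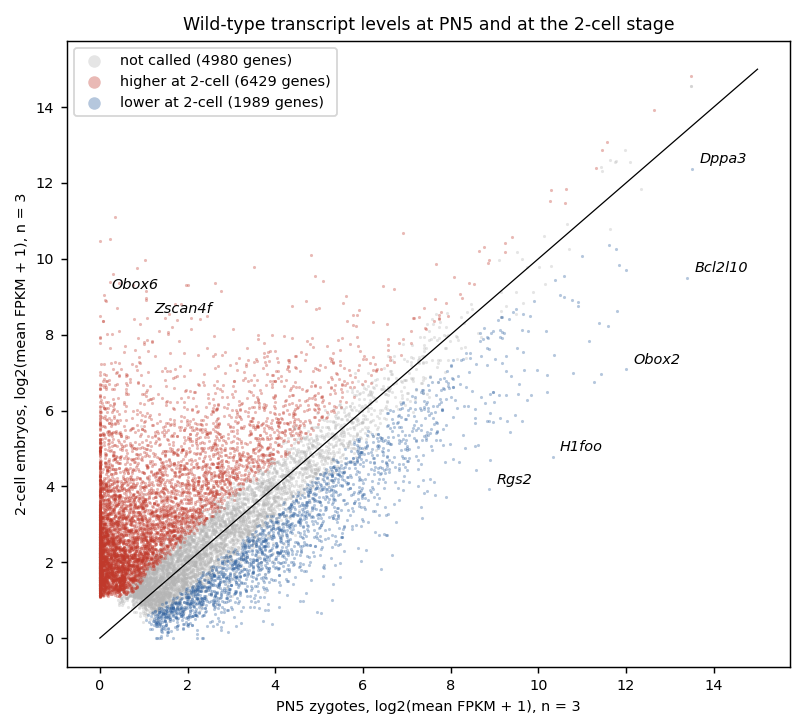
Mean level of each of the 13398 genes at PN5 (horizontal) and at the 2-cell stage (vertical), both as log2(mean FPKM + 1), n = 3 libraries each. Colours mark the 6429 genes called higher and the 1989 called lower, and many of the genes called higher lie near 0 at PN5.

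The makeup of the transcript pool changed over. Genes called lower held 56.8% ± 0.54 (SD, n = 3) of the summed FPKM of nuclear genes at PN5 and 14.4% ± 1.69 at the 2-cell stage. The 2438 rising genes that had been under 1 FPKM in every GV and MII library held 0.131% ± 0.041 at PN5 and 10.5% ± 1.04 at the 2-cell stage. The other 3972 rising nuclear genes went from 8.16% ± 0.22 to 37.3% ± 3.07. Since the same values chose these genes, the shares describe the change and do not test it.

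The largest rises among named coding genes led from near 0 to over 100 FPKM. The promoter windows of 3 of them are shown first, because they differ in CpG content and motifs although all 3 genes rose. With them stand Med29, whose transcript the oocyte also stores, and Obox2 and Rgs2, which fell. Each window runs 5′ to 3′ from 250 bases before to 50 bases after the RefSeq start on GRCm38.p6. Capitals mark matches, on either strand, to 5 motifs: the TATA box as TATAAA, the CCAAT box, the core of Obox-type homeodomains as GGATTA, the Nr5a2 motif as AAGGTCA and the motif of ETS factors such as Gabpa as CCGGAAG.
Zscan4f, chr7:11397665-11397964, plus strand: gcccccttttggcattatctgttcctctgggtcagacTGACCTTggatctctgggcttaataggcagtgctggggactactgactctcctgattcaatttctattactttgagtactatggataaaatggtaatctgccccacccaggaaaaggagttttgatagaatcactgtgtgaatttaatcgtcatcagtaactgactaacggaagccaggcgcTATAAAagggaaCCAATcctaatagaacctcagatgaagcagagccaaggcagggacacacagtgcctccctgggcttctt
Usp17lb, chr7:104842534-104842833, minus strand: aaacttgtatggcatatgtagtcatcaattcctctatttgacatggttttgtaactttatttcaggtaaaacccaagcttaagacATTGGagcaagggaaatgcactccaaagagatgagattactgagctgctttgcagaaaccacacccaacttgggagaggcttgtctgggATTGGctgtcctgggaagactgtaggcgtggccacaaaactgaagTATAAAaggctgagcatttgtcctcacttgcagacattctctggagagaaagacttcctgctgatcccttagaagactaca
Prps1, chrX:140456353-140456652, plus strand: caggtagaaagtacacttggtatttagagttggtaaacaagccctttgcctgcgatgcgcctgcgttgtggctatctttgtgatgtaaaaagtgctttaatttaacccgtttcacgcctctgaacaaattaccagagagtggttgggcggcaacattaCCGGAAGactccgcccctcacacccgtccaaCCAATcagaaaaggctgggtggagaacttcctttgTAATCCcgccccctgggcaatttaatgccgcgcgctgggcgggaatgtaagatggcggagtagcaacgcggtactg
Med29, chr7:28392641-28392940, minus strand: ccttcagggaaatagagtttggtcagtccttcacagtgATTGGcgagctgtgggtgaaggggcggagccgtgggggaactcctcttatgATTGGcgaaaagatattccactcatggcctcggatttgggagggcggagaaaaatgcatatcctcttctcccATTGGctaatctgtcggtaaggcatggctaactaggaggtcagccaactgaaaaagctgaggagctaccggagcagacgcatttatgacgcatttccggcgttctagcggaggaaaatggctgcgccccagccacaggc
Obox2, chr7:15388601-15388900, plus strand: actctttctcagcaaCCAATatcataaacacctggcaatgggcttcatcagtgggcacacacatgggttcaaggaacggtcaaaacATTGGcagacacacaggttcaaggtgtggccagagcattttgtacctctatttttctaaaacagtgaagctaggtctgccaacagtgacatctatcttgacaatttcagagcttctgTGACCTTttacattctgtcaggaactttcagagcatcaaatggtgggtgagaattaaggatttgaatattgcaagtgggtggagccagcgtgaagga
Rgs2, chr1:144004100-144004399, minus strand: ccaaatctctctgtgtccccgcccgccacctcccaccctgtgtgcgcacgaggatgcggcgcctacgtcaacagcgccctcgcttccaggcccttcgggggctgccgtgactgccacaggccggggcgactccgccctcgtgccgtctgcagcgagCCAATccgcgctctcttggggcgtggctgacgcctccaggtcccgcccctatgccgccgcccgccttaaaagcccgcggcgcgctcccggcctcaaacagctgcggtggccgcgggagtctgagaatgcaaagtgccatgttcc

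Zscan4f and Usp17lb both carried a TATA box 31 bases before the start and had 3 and 1 CpG dinucleotides in 300 bases. Prps1 had no TATA match and 17 CpG, with an ETS match at -92, a CCAAT box at -61 and an Obox core at -26. Med29 had 3 CCAAT boxes and 14 CpG. Rgs2 had 33 CpG and Obox2 had 2, and the RefSeq start of Obox2 lies 130 nt from the annotated gene start. Among all 32851 windows, 13.6% held a TATA match, 37.4% a CCAAT box, 7.06% the Obox core, 4.72% the Nr5a2 motif and 8.86% the ETS motif. Among the 7242 tested coding genes with a window, leaving out chromosome 18, these shares were 7.55%, 41.6%, 5.99%, 3.20% and 19.7%. A match is a run of letters, not a bound site. Shares by direction of change are not given, because fewer than 80% of the 9095 tested coding genes outside chromosome 18 had a window (79.6%).

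Obox6 showed the largest rise among named coding genes. It encodes a homeobox factor of the Obox family, which takes part in mouse genome activation, and lies at chr7:15833241-15839678 on the minus strand with 3 exons. It was listed at 0, 0 and 0.209 FPKM at PN5 and reached 615, 554 and 427 FPKM at the 2-cell stage. The difference was 8.95 ± 0.24 (SE) on the log2(FPKM + 1) scale (adjusted p = 1.8e-07). The added 1 FPKM limits this size for any gene near 0, so the differences of such genes understate the change. Obox8 was at 0 in every PN5 library and at 298, 216 and 206 FPKM later. Obox3 went from 0.383, 0.260 and 0.306 FPKM to 43.0, 49.2 and 62.7 FPKM.

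The other Obox genes moved the opposite way. Obox2 was among the most abundant nuclear coding transcripts of the zygote and fell from 6084, 3569 and 2669 FPKM to 105.1, 133 and 168 FPKM, by 4.85 ± 0.34 log2 units (adjusted p = 9.2e-06). Obox1 fell from 2551, 1631 and 1156 FPKM to 84.0, 118 and 177 FPKM. Obox7 fell from 634, 430.2 and 302 FPKM to 32.8, 51.5 and 72.1 FPKM. Obox5 had the smallest fall, from a mean of 1529 to 513 FPKM, and its call was lost without PN5 library 2 (adjusted p = 0.055) or without 2-cell library 1 (adjusted p = 0.068). All 7 members of the family tested were called, 3 up and 4 down under both scalings. These genes are similar in sequence, and fragments may have been shared among them in counting.

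Of 36 tested transcripts known from the 2-cell stage, 35 rose and none fell, also without PN5 library 1, and 33 rose after median-of-ratios scaling. The median difference was 5.33 log2 units, against 0.70 over all genes. Their summed FPKM ran from 85.8 to 149.6 at PN5 and from 3783 to 5022 at the 2-cell stage. Calls for Sp110 and D5Ertd577e did not hold after scaling (0.22 and 0.49 log2 units, adjusted p = 0.45 and 0.13). Sp110 also lost its call without PN5 library 3, 2-cell library 1 or 2-cell library 2 (adjusted p = 0.052, 0.05 and 0.073). Tcstv1 had 62.4, 55.0 and 41.9 FPKM at PN5 and 29.5, 50.2 and 70.4 FPKM at the 2-cell stage, which overlap. Duxf3, the Dux factor itself, did not pass the filter on low values.

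These genes come in clustered families, and every tested member of 5 families rose under both scalings. The 6 Zscan4 genes on chromosome 7 reached means of 33.1 to 345 FPKM. The family encodes zinc-finger proteins linked to telomeres, although the annotation lists Zscan4a as an unprocessed pseudogene. Zscan4f itself went from 2.21, 0.787 and 0.318 FPKM to 446, 234 and 355 FPKM. The 3 Trim43 genes on chromosome 9, which encode tripartite-motif proteins, reached 47.2 to 327 FPKM. Trim43b was at 0.0519, 0.0630 and 0.0542 FPKM at PN5 and at 369, 348 and 265 FPKM later. Trim43a was at 0 in all PN5 libraries and at 253, 203 and 196 FPKM later.

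Deubiquitinase genes of the Usp17l group rose as well, all 5 on chromosome 7, to means of 6.38 to 259 FPKM. Usp17lb went from 0, 0.183 and 0.189 FPKM to 322, 249 and 207 FPKM. The 5 Tdpoz genes on chromosome 3, which encode proteins with TRAF and BTB/POZ domains, reached 6.48 to 154 FPKM. The 6 genes on chromosome 12 resembling the translation factor Eif1a reached 38.9 to 481 FPKM. Members of each family are near-copies of one another, so the level of any single copy is uncertain.

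Genes outside these families rose as far. Prps1 encodes phosphoribosyl pyrophosphate synthetase, which starts nucleotide synthesis, and is on chromosome X. It had 2.30, 0.799 and 0.0859 FPKM at PN5 and 514, 486 and 488 FPKM at the 2-cell stage (8.06 ± 0.38 log2 units, adjusted p = 1.7e-06). Gcsh, a carrier protein of the mitochondrial glycine cleavage system, went from 3.24, 2.39 and 3.00 FPKM to 733, 569 and 600.3 FPKM. Selenos, a selenoprotein of the endoplasmic reticulum, went from 0.292, 0.0645 and 0.250 FPKM to 333, 232 and 207 FPKM. Rfpl4b and Timd2 were at 0 in all PN5 libraries and had means of 244 ± 9.62 and 120.4 ± 27.2 FPKM later. The libraries of the 2 stages were far apart for each of these genes.

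The metallothioneins Mt1 and Mt2, small metal-binding proteins encoded side by side on chromosome 8, rose with more spread among zygotes. Mt1 was at 6.12, 0.240 and 0 FPKM at PN5 and at 313, 233 and 334 FPKM later. Mt2 was at 12.4, 0.914 and 0 FPKM at PN5 and at 379, 298 and 398 FPKM later. PN5 library 1 was the highest zygote library for both.

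**Figure D2:**
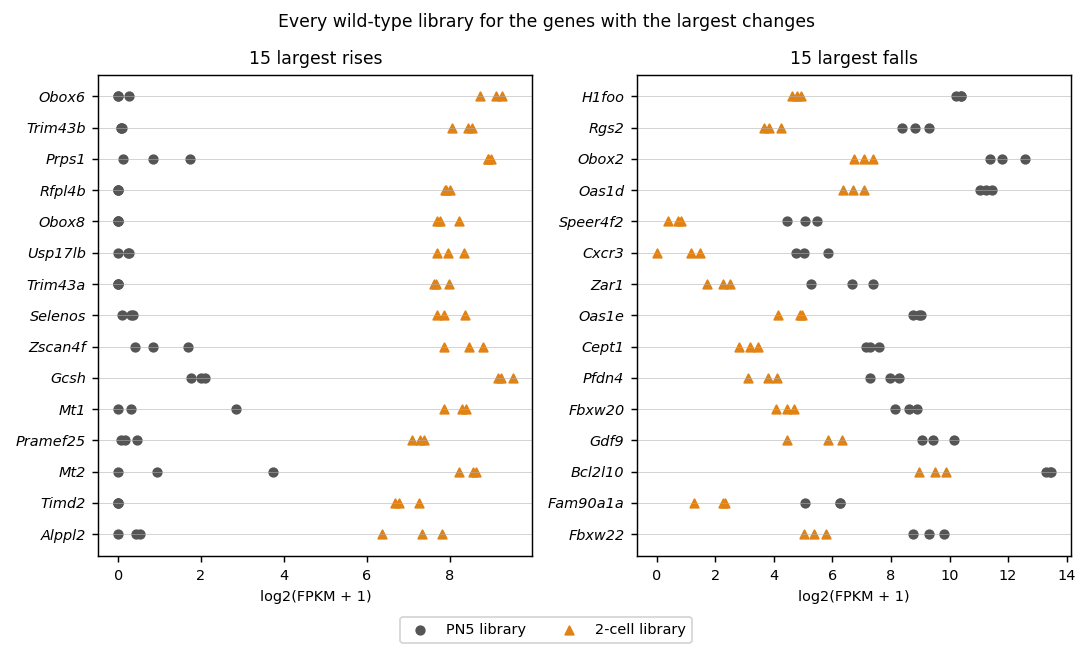
Every PN5 library (circles) and 2-cell library (triangles) for the 15 largest rises (left) and the 15 largest falls (right), on the log2(FPKM + 1) axis. The stages do not overlap for any gene shown, a condition for being chosen, and the zygote libraries spread most for Mt1 and Mt2.

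Transcription factors of the early embryo rose in 18 of 26 tested cases and none fell (15 and 1 after scaling). Without PN5 library 1, 2 members fell. Gabpa, an ETS-family factor, went from 0.111, 0.105 and 0 FPKM to 139.9, 104 and 92.1 FPKM. Dppa4, a chromatin-associated factor, went from 1.74, 0.380 and 0.653 FPKM to 153, 104 and 108 FPKM. Its partner Dppa2 began higher, at 7.56, 12.1 and 14.3 FPKM, and reached 92.8, 60.1 and 45.3 FPKM. Klf5 went from a mean of 0.121 to 21.05 FPKM, and Zfp42, a marker of pluripotent cells, went from 0 in each zygote library to 16.7, 27.1 and 20.6 FPKM.

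Nr5a2, an orphan nuclear receptor, had 0.830, 1.66 and 1.38 FPKM at PN5 and 11.4, 8.42 and 6.50 FPKM later (2.08 ± 0.28 log2 units, adjusted p = 0.00026). Pou5f1, the Oct4 gene, had 15.6, 46.3 and 42.2 FPKM at PN5 and 27.6, 32.7 and 19.1 FPKM later. Klf17 had 27.8, 122 and 289 FPKM and then 103, 129 and 43.6 FPKM. For both of them the stages overlapped, and in both PN5 library 1 was the lowest zygote library.

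Genes for building ribosomes rose as a group. Of 55 tested factors for ribosomal RNA processing and ribosome assembly, 45 rose and 1 fell (39 and 2 after scaling), with a median of 1.97 log2 units. Nop16 went from 0, 0.118 and 0 FPKM to 126, 99.8 and 79.4 FPKM. Nhp2, a subunit of the pseudouridylating ribonucleoproteins, went from 4.02, 4.45 and 2.76 FPKM to 193, 179.6 and 151 FPKM. The member that fell was Npm1, from a mean of 256 ± 86.4 to 146 ± 7.62 FPKM, and that call was lost without PN5 library 2, 2-cell library 2 or 2-cell library 3 (0 genes called lower). Of 24 tested subunits and factors of RNA polymerases I and III, which transcribe ribosomal and transfer RNA, 20 rose and none fell (16 and 1 after scaling). Polr1e went from a mean of 0.940 to 44.8 FPKM.

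Cytosolic ribosomal protein genes rose nearly throughout: 72 of 75 were higher and 2 fell, also without PN5 library 1 (64 and 2 after scaling). Their summed FPKM was 340, 316 and 257 at PN5 and 2697, 2191 and 2398 at the 2-cell stage. It had been 2326 to 2445 in GV oocytes and 206 to 224 in MII eggs, so the 2-cell sums lay near those of GV oocytes. The median member was at 12.9, 0.396, 1.06 and 14.7 FPKM from GV to the 2-cell stage, and 40 of the 75 exceeded their GV mean at the 2-cell stage. Rps15 showed the pattern, with 2.78, 3.38 and 2.12 FPKM at PN5 and 129.96, 102 and 129 FPKM later. Rpl17 ran against it, from 48.4, 50.01 and 24.5 FPKM to 9.95, 17.5 and 18.9 FPKM. Rpl15 fell too, and the number of falls was 1 without PN5 library 2 and 0 without 2-cell library 1. Ribosomal protein genes have many processed pseudogenes, and fragments may be split between them.

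Other machinery also had more rises than falls as deposited, as did all genes tested (48.0% rose and 14.8% fell). RNA polymerase II and its general factors had 22 rises and 4 falls of 31 (16 and 7 after scaling). Polr2h, a subunit shared by the nuclear polymerases, went from 5.26 ± 0.86 to 65.3 ± 11.9 FPKM. Translation initiation factors had 22 rises and 4 falls of 36 (18 and 7 after scaling). Eif4ebp1, which restrains cap binding, went from 0.869 to 33.8 FPKM in the mean, and Eif2b1 fell from 471, 494 and 469 FPKM to 101, 82.2 and 75.03 FPKM. Nuclear import and export genes had 18 rises and 3 falls of 24 (14 and 3 after scaling), and the exportin Xpo1 went from 3.85 ± 0.45 to 44.3 ± 5.87 FPKM.

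Genes of nucleotide and polyamine synthesis had 19 rises and 1 fall of 30 (16 and 5 after scaling, and 5 falls without PN5 library 1). Ppat, which commits phosphoribosyl pyrophosphate to purines, went from 0, 0.0271 and 0.0583 FPKM to 50.5, 34.2 and 36.9 FPKM. The spliceosome list had 18 rises and 7 falls of 39, but 16 and 13 after scaling and 15 and 14 with the length trend removed. The proteasome list had 17 rises and 4 falls of 32 (13 and 6 after scaling, and 9 falls with the length trend removed), with 2 falls when PN5 library 2 or any 2-cell library was left out. The chaperone list had 13 rises and 2 falls of 27, but 12 and 5 after scaling and 12 and 10 with the length trend removed. As deposited, the shares of rises in the spliceosome, proteasome and chaperone lists lay near the 48.0% over all genes. Single members of these still rose far: Snrpd2 went from 0.410 to 30.2 FPKM, Psmb1 from 3.07 to 48.6 FPKM and Cct6a from 0.399 to 26.9 FPKM in the mean. Cytosolic aminoacyl-tRNA synthetases had 11 rises and 2 falls of 19. They had 5 of each after scaling, 7 and 6 rises without 2-cell library 1 or 2, and 4 falls without PN5 library 1.

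Nuclear genes of oxidative phosphorylation had 32 rises and 7 falls of 57 (26 and 9 after scaling, and 15 falls with the length trend removed). Over all genes 48.0% rose and 14.8% fell as deposited, so these shares were not far from the background. Atp5o, a part of the ATP synthase stalk, went from 0.661 ± 0.21 to 31.0 ± 8.01 FPKM. Transcripts of the mitochondrial genome gave no stable call. As deposited, 8 of the 13 protein genes were higher and none lower, and 0 were called in either direction after median-of-ratios scaling or with the length trend removed. With every library set to the same FPKM sum, 8 were higher. Without PN5 library 1 all 13 were higher, and with any other library left out 3 to 5 were. With median-of-ratios scaling and without PN5 library 1, an alternative chosen after seeing the data, 12 were higher and 0 lower. mt-Nd5 had 1910.4, 1084 and 719 FPKM at PN5 and 3020.1, 2582 and 3213 FPKM later. PN5 library 1 was again the highest zygote library.

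**Figure D3:**
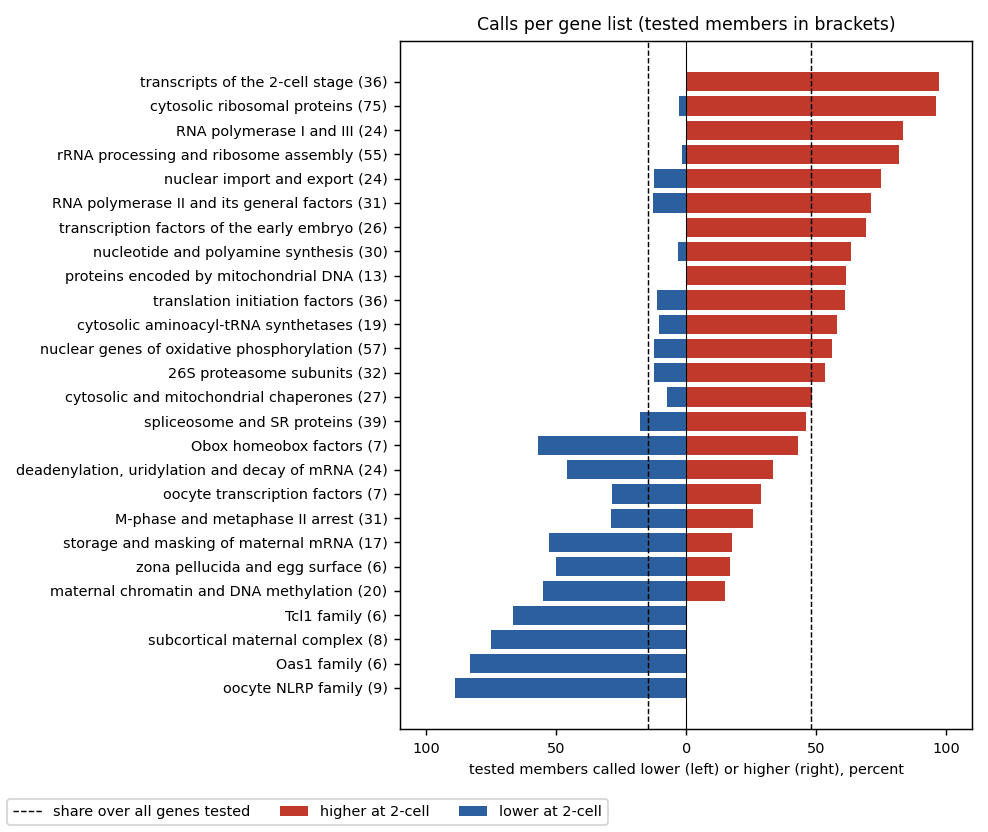
Percent of tested members of each gene list called higher (right) or lower (left) at the 2-cell stage, with the number of tested members in brackets. Dashed lines mark the shares over all 13398 genes, 48.0% higher and 14.8% lower. Ribosomal proteins lie far to the right and the Oas1 and NLRP families far to the left.

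Oocyte libraries, which the comparison did not use, separated rises of transcripts not seen in oocytes from rises of transcripts that GV oocytes had held. Of the 6429 rising genes, 2438 (37.9%) had been under 1 FPKM in all 6 GV and MII libraries, against 2573 of all 13398 genes tested (19.2%). Because a gene absent from the oocyte passes the filter on low values mainly through the 2-cell libraries, this share is a description. Another 1920 rising genes (29.9%) had a mean of at least 5 FPKM in GV oocytes. Their median level was 12.2% of GV in MII eggs, 19.3% in zygotes and 106.7% in 2-cell embryos. These levels are deposited FPKM with no scaling across the 4 stages, so they are shares of each library and not amounts per cell. On that scale the low point lay at MII, and 1011 of these stored genes exceeded their own GV mean at the 2-cell stage.

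Med29, a Mediator subunit, was one such case, at 34.6 ± 2.92 FPKM in GV oocytes and 0.393 ± 0.378 in MII eggs. It stood at 0.699, 0.340 and 0.949 FPKM in zygotes and at 156, 145 and 141 FPKM in 2-cell embryos (6.50 ± 0.24 log2 units, adjusted p = 6.6e-07). Mdh2, the mitochondrial malate dehydrogenase, went from 43.6 FPKM in GV oocytes to 0.706 in MII eggs, 1.16, 1.39 and 1.09 in zygotes and 90.3, 81.2 and 61.4 in 2-cell embryos. Cstb, a protease inhibitor, ran from 25.7 (GV) and 0.112 (MII) through 3.41, 1.44 and 1.24 at PN5 to 211, 144 and 194 FPKM. Emc4, of the endoplasmic reticulum membrane protein complex, had means of 25.3, 1.124, 0.975 and 101 FPKM over the 4 stages. Rps27rt, a ribosomal protein gene copy, was at 103 FPKM in GV oocytes, 0 in all 3 zygote libraries and 115, 71.4 and 97.2 FPKM later. The 1-exon gene Eif3j2 had 0, 0 and 16.2 FPKM at PN5 and 109, 102 and 76.0 FPKM later, so its zygote libraries disagreed.

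Of the 6429 rising genes, 48 had a zygote mean of at least 1 FPKM that was also at least 2 times both oocyte means. Mt2 was one (4.42 ± 6.89 FPKM at PN5, against 0.463 in GV oocytes), with its level set by PN5 library 1. The median rising gene was at 0.566 FPKM at PN5, below that limit. Transcripts that rose from MII without reaching 2 times their GV level are also left out. The count therefore cannot show how many rises had begun before PN5.

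**Figure D4:**
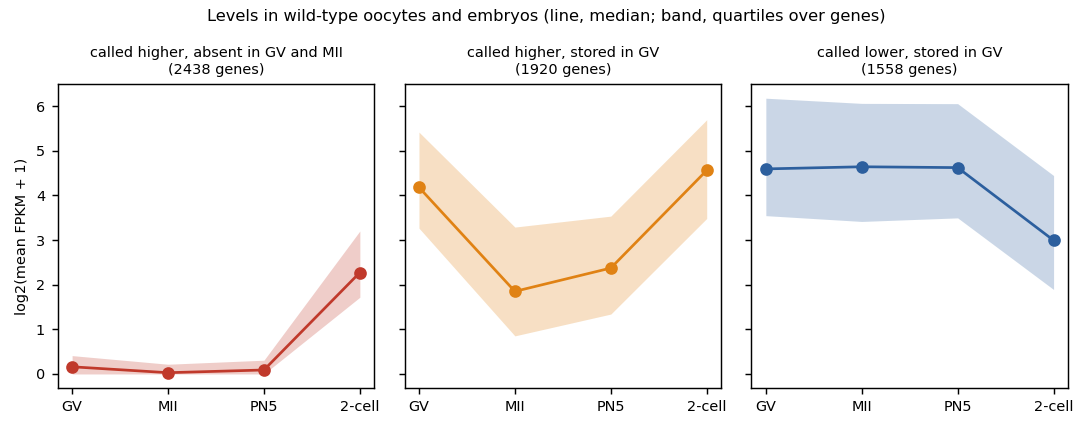
Median (line) and quartiles (band) of log2(mean FPKM + 1) at GV, MII, PN5 and 2-cell for 2438 rising genes absent from oocytes, 1920 rising genes stored in GV oocytes and 1558 falling genes stored in GV oocytes. On this deposited scale, not adjusted across stages, the stored rising genes dip at MII and PN5. The median of the stored falling genes stays level until PN5.

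Most falling genes had been present in GV oocytes. Of 1989 falling genes, 1558 (78.3%) had at least 5 FPKM in GV oocytes, against 43.8% of all genes tested. Their median level was 118.7% of GV in MII eggs, 109.1% in zygotes and 28.2% in 2-cell embryos. For 1180 of them the zygote mean FPKM was at least 50% of the GV mean. A gene can fall only if it is still well expressed at PN5, so these shares and levels are a description with no test. The levels are deposited FPKM without scaling across stages, so a level near that of GV does not show that the amount was kept.

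H1foo, the oocyte linker histone, had the largest fall. It had 1191, 1330.1 and 1332 FPKM at PN5 and 23.8, 29.5 and 26.6 FPKM at the 2-cell stage (-5.54 ± 0.20 log2 units, adjusted p = 6.5e-07). Bcl2l10, an anti-apoptotic Bcl2-family gene of oocytes, was at 10635 FPKM in MII eggs and 10037, 11386 and 10926 FPKM in zygotes, and then at 502, 951 and 722 FPKM. Rgs2, which dampens G-protein signals and whose CpG-rich promoter is printed above, fell from 629, 447 and 333 FPKM to 13.3, 11.7 and 17.7 FPKM. All the 2-cell libraries of these genes lay far below all zygote libraries. Cept1, an enzyme of phospholipid synthesis, fell from 192, 155 and 139 FPKM to 5.94, 8.10 and 9.90 FPKM. Pfdn4, a prefoldin subunit, fell from 310.4, 248 and 155 FPKM to 7.61, 16.3 and 12.9 FPKM. Dppa3, a protector of the maternal methylome, was the most abundant nuclear coding transcript at both stages, with 16430.0, 10853 and 7834 FPKM and then 4788, 4892 and 6230.3 FPKM.

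Fbxw20 and Fbxw22, oocyte F-box genes on chromosome 9, were named for the size of their falls, and their family was not tested as a list. Fbxw20 fell from 476, 393 and 281 to 16.0, 21.02 and 24.8 FPKM. Fbxw22 fell from 895, 629 and 428 to 32.0, 40.8 and 53.7 FPKM. The Oas1 family, relatives of the antiviral oligoadenylate synthetases, had 5 falls and no rise among 6 tested members, and 6 falls after scaling. Oas1d fell from 2126, 2419.9 and 2810.1 FPKM to 103, 134 and 81.4 FPKM. Oas1e fell from 431, 516 and 492 FPKM to 16.5, 28.7 and 29.8 FPKM. The Tcl1 family, kinase co-activators abundant in eggs, had 4 falls among 6 tested members (6 after scaling), and Tcl1 went from 1906 ± 425 to 468 ± 204.9 FPKM. Oocyte NLRP genes had 8 falls and no rise of 9 under both scalings, such as Nlrp4b from 109, 103 and 112 FPKM to 4.96, 7.55 and 9.39 FPKM.

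The subcortical maternal complex, a protein assembly of the egg cortex needed for cleavage, had 6 falls and no rise of 8 (7 falls after scaling). Ooep fell from 295, 248 and 161 FPKM to 17.7, 15.5 and 39.2 FPKM. Zbed3 fell from 992, 2029 and 2735 FPKM to 321, 636 and 339 FPKM. Nlrp5 (Mater) had 23.6, 46.4 and 69.8 FPKM and then 26.9, 32.8 and 17.1 FPKM, and was called after scaling (adjusted p = 0.0085) but not as deposited (adjusted p = 0.14). Without PN5 library 1 it was also called as deposited (adjusted p = 0.012). Padi6 was called (-1.46 ± 0.43, adjusted p = 0.017), but not without 2-cell library 2 or 3 (adjusted p = 0.051 and 0.080). Zp3, a zona pellucida glycoprotein, was at 54.2 ± 20.99 and 67.1 ± 16.9 FPKM and did not pass the test (adjusted p = 0.40), having dropped from 2114 FPKM in GV oocytes to 85.8 in MII eggs.

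The egg's surface genes differed among themselves, with 3 falls and 1 rise of 6 tested. Zp1, among the falls, lost its call without PN5 library 2 or 3, or 2-cell library 1 or 3 (adjusted p between 0.12 and 0.17). Cd9, a tetraspanin needed for sperm fusion, rose from 20.6, 18.04 and 17.4 FPKM to 159.7, 134 and 134 FPKM. Izumo1r (Juno), the sperm receptor, fell from 36.0, 48.5 and 29.9 FPKM to 3.97, 4.30 and 4.49 FPKM. Cd9 had been at 159 FPKM in GV oocytes and 9.78 in MII eggs, so its low point also lay at MII. Of 4 tested factors that oocytes secrete, 3 fell and none rose. Bmp15, among the falls, lost its call without PN5 library 2 or 3, or 2-cell library 1 or 3 (adjusted p between 0.052 and 0.09). Oocyte transcription factors had 2 falls and 2 rises of 7. There were 4 falls after scaling or with the length trend removed, and 1 when any library other than PN5 library 1 was left out.

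Genes that store or degrade maternal messages moved in both directions. The storage list had 9 falls and 3 rises of 17 (10 and 2 after scaling), with 5 falls without PN5 library 2 or without 2-cell library 2. Zar1, an RNA-binding organiser of stored messages, fell from 37.0, 101 and 166 FPKM to 2.28, 4.67 and 3.74 FPKM. Dazl, a germ-cell translation activator, fell from 261, 237 and 213 FPKM to 37.7, 49.3 and 56.5 FPKM. The decay list had 11 falls and 8 rises of 24. Btg4, the adaptor that brings the deadenylase to maternal messages, fell from 4316, 3334 and 2816 FPKM to 835, 1152 and 1664 FPKM. Pabpn1l, a poly(A)-binding protein that recruits Btg4, fell from 18.1, 50.9 and 47.0 FPKM to 1.23, 2.11 and 1.69 FPKM. Cnot7, a catalytic deadenylase subunit, fell from 122, 128 and 139 FPKM to 52.7, 72.0 and 66.5 FPKM. Cnot10, a scaffold subunit, rose from 0.107 ± 0.089 to 5.65 ± 2.74 FPKM.

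Genes of M phase and metaphase II arrest also moved both ways, with 9 falls and 8 rises of 31 (11 and 6 after scaling). Mos, the kinase behind metaphase II arrest, had already dropped from 971.5 FPKM in MII eggs to 24.96 ± 9.15 at PN5 and then reached 2.38 ± 0.48 FPKM. Bub1b fell from 65.8, 81.8 and 125 FPKM to 7.48, 4.07 and 5.30 FPKM, and the oocyte kinase Aurkc from 160 ± 29.9 to 23.2 ± 2.92 FPKM. Cdc25c, a phosphatase that drives mitotic entry, rose from 0.396, 0.186 and 0.0267 FPKM to 33.9, 32.7 and 31.0 FPKM, and Cdk1 rose from 12.9 ± 1.68 to 69.5 ± 8.53 FPKM.

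Maternal chromatin regulators had 11 falls and 3 rises of 20 (13 and 2 after scaling). Dnmt1 fell from 28.0 ± 10.7 to 3.83 ± 1.39 FPKM, its cofactor Uhrf1 from 23.1 ± 10.6 to 3.88 ± 1.06 FPKM, and Eed, a Polycomb subunit, from 83.1, 67.9 and 66.9 FPKM to 15.1, 17.8 and 16.9 FPKM. The histone demethylase Kdm5b rose from 0.212, 0.280 and 0.274 FPKM to 15.2, 13.6 and 8.77 FPKM, and the histone chaperone Hira from 0.0876 to 2.79 FPKM in the mean.

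Rising coding genes had shorter genomic spans than falling ones. The median exonic length was 3380 nt for the 4227 rising coding genes, 3611 nt for the 1489 falling ones, 4545 nt for those not called and 3839 nt over all 9333. The median genomic span was 16600 nt for rising and 26423 nt for falling genes, and for rises of at least 4-fold it was 11185 nt, with 2618 nt of exon and 6 exons. For falls of at least 4-fold it was 21244 nt, with 2820 nt of exon and 7 exons, so short exonic length was not particular to rises. With the length trend between libraries removed, the median exonic lengths of rising and falling genes were 3512 and 3610.5 nt. That step removes a trend with exonic length itself, so their nearness follows from the method. The median spans stayed at 16498.5 and 26396 nt. Across 13376 genes the rank correlation of the change was -0.184 with exonic length and -0.187 with exon number, a description over genes that share libraries. Fragment length, library and gene length cannot be separated in these values.

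Noncoding genes moved in both directions. Of 707 tested lincRNAs 275 rose and 153 fell, of 341 antisense RNAs 173 rose and 56 fell, and of 1890 processed pseudogenes 1152 rose and 188 fell. Over all genes 48.0% rose and 14.8% fell. Beside these shares lincRNAs rose less often and fell more often, antisense RNAs lay near them, and processed pseudogenes rose more often and fell less often. B020004C17Rik, a lincRNA with 4 exons on chromosome 14, went from 0.3003, 0 and 0 FPKM to 501, 445 and 473 FPKM. Gm48419 on chromosome 13 went from 0.0311, 0 and 0 FPKM to 159, 149.5 and 135 FPKM. The labels do not say whether strand was kept, so reads of a gene and of its antisense partner cannot be told apart.

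Markers of other cell types were low at PN5, and some rose. Summed over 18 granulosa and cumulus markers, the 6 libraries held 15.8 to 20.7 FPKM at PN5 and 25.6 to 38.3 at the 2-cell stage. Of these 18, 5 were at 0 in all 6 libraries (Fshr, Amh, Inha, Areg and Ereg), and 14 stayed under 1 FPKM in every library. The aromatase gene Cyp19a1 fell from 19.1, 14.7 and 14.5 FPKM to 0.888, 1.01 and 0.378 FPKM, and Tnfaip6 rose from 0 in every zygote library to 27.4, 15.6 and 32.6 FPKM. Summed over 15 sperm markers, levels were 2.03 to 6.46 and then 22.2 to 28.4 FPKM, with 3 genes at 0 and 9 under 1 FPKM throughout, and over 13 markers of blood, stroma and oviduct 3.45 to 7.01 and then 124 to 229 FPKM, with 4 genes at 0 and 7 under 1 FPKM. Epcam, an epithelial adhesion molecule, rose from 1.21, 0.632 and 1.55 FPKM to 105.2, 71.5 and 54.1 FPKM. Hba-a1, an alpha globin, rose from 0.450, 0 and 0 FPKM to 74.8, 46.0 and 42.9 FPKM, while the beta globins Hbb-bs and Hbb-bt, the leukocyte marker Ptprc and the collagen Col3a1 were at 0 in all 6 libraries. The part of other cells in the results was not tested.

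The knockout libraries allowed a test of whether the change differed with the labelled genotype. Since the genotype of the sires is not given, that of the mother and that of the embryo cannot be told apart. Nlrp14 itself (chr7:107166990-107198102, plus strand) was at 169, 243 and 217 FPKM in wild-type zygotes and at 6.17, 8.48 and 5.75 FPKM in knockout zygotes. In 2-cell embryos wild type had 90.2, 129 and 99.0 FPKM of it, knockout 25.9, 36.2 and 17.2 FPKM, lower in every knockout library than in every wild-type library of the stage. Of 14986 genes tested over 12 libraries, 4787 (31.9%) moved further upward, or less far downward, in wild type, and 2073 (13.8%) the opposite way. After scaling these were 3915 (27.0%) and 2438 (16.8%) of 14526. Between the knockout stages alone, 5020 of 11450 genes rose (43.8%) and 3066 fell (26.8%).

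Several of the largest wild-type rises were smaller in knockout embryos. Genes named for a large wild-type change were chosen on libraries that also enter this difference, which favours a smaller change in knockout. Those named for the smallest p were chosen by the difference itself. The examples below are therefore a description. Obox6 reached 105.7, 21.1 and 44.0 FPKM in knockout 2-cell embryos against 615, 554 and 427 FPKM in wild type, a difference of 3.42 ± 0.59 log2 units in the change (adjusted p = 0.00081). Stmn3, a microtubule-destabilising protein, was at 0 in all zygote libraries of both genotypes and then reached 54.6, 41.5 and 41.1 FPKM in wild-type embryos, against 1.44, 1.47 and 2.14 FPKM in knockout (4.12 ± 0.26, adjusted p = 6.8e-06). Nol11, a factor of ribosomal RNA synthesis, reached 20.8, 20.3 and 20.04 FPKM in wild-type embryos but a mean of 2.57 ± 0.45 FPKM in knockout. Ddx10, a helicase of ribosome assembly, rose from 4.28 to 22.2 FPKM in wild type and went from 6.61 to 1.45 FPKM in knockout. Zscan4f ran the other way, with 799, 448 and 462 FPKM in knockout 2-cell embryos against 446, 234 and 355 FPKM in wild type. Low zygote means, 1.10 FPKM in wild type and 0.225 FPKM in knockout, also enter the difference. That difference was -1.40 ± 0.48 log2 units (adjusted p = 0.031). That call was lost (adjusted p between 0.055 and 0.078) without wild-type PN5 library 1, wild-type 2-cell library 2, knockout PN5 library 1 or 2, or knockout 2-cell library 1.

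Several maternal transcripts fell less far in knockout embryos, or did not fall there. Bcl2l10 remained at 4033, 6095 and 5581 FPKM in knockout 2-cell embryos, from a zygote mean of 12035 FPKM (-2.72 ± 0.32, adjusted p = 0.00012). Ldhb, a lactate dehydrogenase subunit, fell in wild type from 1158, 1550.2 and 1204 FPKM to 139, 222 and 162 FPKM. In knockout it had 1198, 1291 and 1610 FPKM and then 1197, 1427 and 1226 FPKM (-2.83 ± 0.29, adjusted p = 7.7e-05). H1foo was left at 301 ± 121 FPKM in knockout against 26.6 ± 2.87 in wild type. Hist2h2aa1, a core histone gene, differed by a gain in knockout and not by a lesser fall. Its mean fell in wild type from 35 to 12.1 FPKM, while its knockout mean rose from a lower start of 13.8 to 78.6 FPKM (-3.85 ± 0.35, adjusted p = 6.1e-05). The labels do not say how far the knockout embryos had developed at collection, so genotype and developmental time cannot be told apart.

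**Figure D5:**
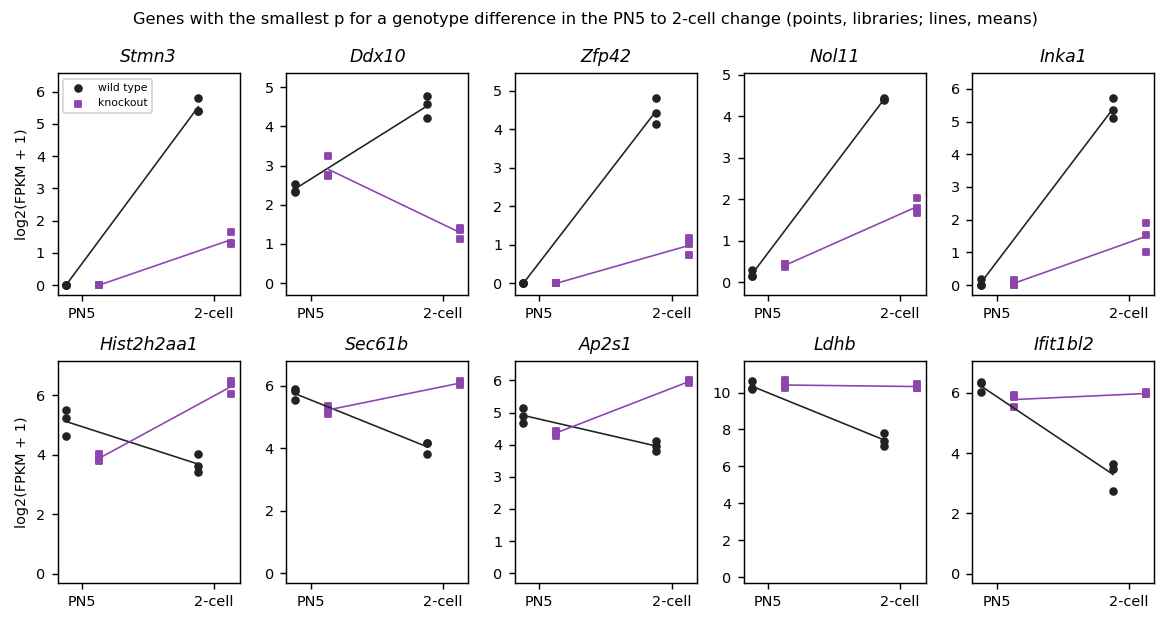
Levels at PN5 and 2-cell in each wild-type (circles) and knockout (squares) library, as log2(FPKM + 1), for the 10 genes named by smallest p for a genotype difference of the change. Stmn3 rises to 41.1 FPKM or more in each wild-type 2-cell library and stays at 2.14 FPKM or less in knockout.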

How the data were processed

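The authors deposited, for each library, FPKM values of 55487 genes under Ensembl identifiers. Both StringTie and the genome build GRCm38 are named per the submitters' processing notes. Not given in the sources used here are the aligner, versions, annotation release and filters. Complementary DNA came from 5 embryos per library, and p-values measure only the spread between these libraries. FPKM times transcript length came in whole multiples of a step for 98.8 to 99.2% of low values (tolerance 0.02), which gave the depths. Since only genes with a single annotated transcript allow this, a test for normalized values was chosen over a count test.

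Symbols and positions came from GENCODE M21 (55227 identifiers matched). Groups came from the sample labels. Genes that reached 1 FPKM in 3 or more libraries of a fit were tested with limma 3.58.1 (R 4.3.3, with data.table at version 1.17.8), on log2(FPKM + 1) with trend and robust variance, and called at a Benjamini-Hochberg adjusted p under 0.05. The genotype difference is the wild-type change minus the knockout change in one fit over 12 libraries. In simulated data for wild-type 2-cell against PN5 (12171 genes), 67, 67 and 66 genes were changed 2-, 4- and 8-fold. They were drawn only from genes with a level of at least 5 FPKM, averaged on the log2 scale, so genes at lower levels are not covered. The fit recovered 7.5, 71.6 and 89.4% of them, with 0 false calls. In the real comparison 62.8% of genes were called. The adjusted threshold is stricter where few genes change, so these rates do not carry over to it. Summaries and figures used Python 3.11.15, pandas 2.3.3, numpy 2.4.6, scipy 1.17.1 and matplotlib 3.10.9. Promoter windows came from RefSeq (GRCm38.p6).

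Named genes were the 15 largest rises and falls with at least 20 FPKM in the higher stage and no overlap of libraries, leaving out predicted genes and pseudogenes, the 8 largest rises of transcripts absent from or stored in oocytes, the 8 largest falls of transcripts kept until PN5, up to 4 members of each of 30 gene lists, the 5 smallest p per direction for the genotype difference and 10 long noncoding RNAs. Other list members named (such as Obox1, Dppa2, Nr5a2, Pou5f1, Klf17, Npm1, Btg4, Cnot7, Mos, Cdk1 and Dnmt1) were chosen after their values were seen. The comparison, the members and the lists were chosen with earlier results of these data known. Alternatives were other scalings (median of ratios, equal sums, length trend removed), pseudocounts of 0.1 and 5, other filters, all 24 libraries in the fit, a replicate block and each library left out.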

Additional observations from a re-analysis of the deposited data

Results flagged for a closer look

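A difference between the genotypes in the PN5 to 2-cell change was found by the interaction test in 6860 of 14986 genes, and 31 named genes are among them. Values are the wild-type minus the knockout change in log2 units, where a positive value means that the wild-type transcript moved further up or less far down.

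Among the largest wild-type rises, the difference was 3.42 for Obox6, 3.51 for Obox8, 2.37 for Trim43b, 2.21 for Trim43a, 2.64 for Alppl2, 2.54 for Timd2, 2.40 for Selenos, 1.52 for Prps1, 1.31 for Rfpl4b, 1.22 for Gcsh and 1.19 for Usp17lb. These 11 genes rose in both genotypes and rose less in knockout. Over all genes tested, 31.9% differed in that direction. Choosing genes by the size of their wild-type change favours a smaller change in knockout, so this count is no test. Zscan4f differed the other way, at -1.40. Of the 15 largest rises the other 3 had no call: Pramef25 (-0.22, adjusted p = 0.56), Mt1 (0.09, adjusted p = 0.93) and Mt2 (0.51, adjusted p = 0.68). Among the largest falls, the difference was -2.72 for Bcl2l10, -2.54 for H1foo, -2.25 for Oas1e, -1.92 for Fbxw22, -1.84 for Rgs2, -1.67 for Obox2, -1.60 for Pfdn4, -1.48 for Fam90a1a and -1.27 for Fbxw20. Each of these 9 transcripts fell less far in knockout, and 13.8% of all genes tested differed in that direction. The same limit of choice holds for them. The other 6 of the 15 largest falls had no call (Oas1d, Speer4f2, Cxcr3, Zar1, Cept1 and Gdf9, -0.71 to -0.996, adjusted p between 0.061 and 0.30).

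The genes named for the smallest p were Stmn3 (4.12), Inka1 (3.89), Ddx10 (3.74), Zfp42 (3.48) and Nol11 (2.80), which moved further up in wild type, and Hist2h2aa1 (-3.85), Ifit1bl2 (-3.14), Ldhb (-2.83), Sec61b (-2.57) and Ap2s1 (-2.55). Sec61b, a subunit of the protein translocation channel, had 58.7, 56.1 and 45.6 FPKM and then 13.1, 17.0 and 17.1 FPKM in wild type. In knockout it went from 36.6 ± 3.29 to 67.3 ± 3.58 FPKM. Ifit1bl2, an interferon-induced gene relative, went from 74.4 ± 9.20 to 9.13 ± 3.02 FPKM in wild type and from 54.1 ± 7.84 to 61.9 ± 1.35 FPKM in knockout.

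The calls of 7 of the 31 named genes were lost in at least 1 alternative: Alppl2, Fam90a1a, Gcsh, Pfdn4, Prps1, Selenos and Zscan4f. For Prps1 the difference after median-of-ratios scaling was 1.16 (adjusted p = 0.12). Its call was also lost without wild-type PN5 library 2, wild-type 2-cell library 1, knockout PN5 library 1 or 2, or knockout 2-cell library 2 (adjusted p between 0.052 and 0.071). For Gcsh the difference after scaling was 0.92 (adjusted p = 0.055). Fam90a1a and Pfdn4 lay close to the threshold (adjusted p = 0.031 and 0.027). Fam90a1a lost its call, with adjusted p up to 0.076, without wild-type PN5 library 2 or 3, wild-type 2-cell library 3, knockout PN5 library 1 or 3, or knockout 2-cell library 1 or 3. Pfdn4 lost its call, with adjusted p up to 0.07, without wild-type PN5 library 1 or 2, wild-type 2-cell library 1, knockout PN5 library 2, or knockout 2-cell library 2 or 3. Zscan4f lost its call without wild-type PN5 library 1, wild-type 2-cell library 2, knockout PN5 library 1 or 2, or knockout 2-cell library 1 (adjusted p between 0.055 and 0.078). Its difference was -0.92 with a pseudocount of 5 (adjusted p = 0.055).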

How the results depend on the processing

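Of 191 named genes followed through 16 alternatives, 173 kept their direction and side of the threshold, and of 31 genotype differences 24 did through 21 alternatives. Rises of genes numbered 6255 and 6406 with pseudocounts of 0.1 and 5, and falls 1863 and 1977. The counts that moved by over 1.5 times were falls after median-of-ratios scaling (3236), after removal of the length trend (4291), and with that scaling and without PN5 library 1, an alternative chosen after seeing the data (3550). Under a mean of at least 5 FPKM, which tests 6279 genes, there were 2818 rises and 4175 calls in all, and 2892 genotype differences (1603 upward and 1289 downward in wild type). Removal of the length trend turned the direction of 5 rising genes. Leaving out 1 library at a time gave 7311 to 8672 calls, 5822 to 6450 rises and 1484 to 2347 falls, and 5876 to 7378 genotype differences (4090 to 5217 upward, 1734 to 2161 downward).

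The direction of 3 named genes that were not called turned when 1 library was left out: Bmp6 ran from -0.52 to 0.079 (above 0 without PN5 library 3 or 2-cell library 1), Khdc3 from -0.38 to 0.10 (PN5 library 3 or 2-cell library 3) and Tcstv1 from -0.43 to 0.18 (2-cell library 1). With absence set at under 0.5 FPKM, 1765 in place of 2438 rising genes and 0 in place of 4 falling genes had been absent from oocytes. Single-exon genes were 26.2% of rising and 13.0% of falling genes, and 27.5 and 10.3% of those that changed at least 4-fold. The replicate block gave 6117 rises and 1730 falls, and 4579 and 2014 genotype differences, and 4 named genes, Sp110 among them, had no call under it. Same-numbered libraries did not pair (r = -0.11, 0.08 and -0.39; 1 of 3 PN5 libraries correlated best with its own number). The cause of these shifts was not tested. Depth limits values near 0.1 FPKM, which rest on about 1 fragment.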

Other observations

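The largest rises of any gene were not in named coding genes. Of the 15 largest, 8 lay in a stretch of 132 kb on chromosome 11 (chr11:60560924-60693075), where the annotation has 16 genes, all pseudogenes. All 16 were called higher under both scalings. Their summed FPKM was 9.86, 2.13 and 3.25 in the PN5 libraries and 7354, 6306 and 6976 in the 2-cell libraries. It was 5.08 to 10.6 in GV oocytes and 1.23 to 1.72 in MII eggs. Knockout 2-cell embryos had 2648, 1449 and 2365. Gm12627 had a mean of 1462 FPKM and Gm12617 of 1412 FPKM at the 2-cell stage, and no copy exceeded a mean of 1.09 FPKM at PN5. Most copies are single exons of 382 nt, so fragments are probably shared among them and the sum is more certain than any copy. The stretch was chosen after its values were seen, and no test is given. Gm5612, a processed pseudogene of 375 nt on chromosome 9, had the largest rise of all, from 0, 0.290 and 0.499 FPKM to 2468, 2004 and 2160 FPKM.

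Transcripts of the 2-cell stage were not evenly low in zygotes. Of the 35 such genes that rose, 19 had their highest PN5 value in library 1, 7 in library 2 and 4 in library 3, and 5 were at 0 in all. Their summed FPKM was 87.2, 45.03 and 43.9. Of them, 5 were above 0 in library 1 alone. Among all 2964 genes that rose at least 4-fold, library 1 was the highest for 30.3%, library 2 for 23.4% and library 3 for 27.7%. Mt1, Mt2 and the mitochondrial transcripts were also highest in library 1.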
